A study of Mus musculus with 18 samples.

Results

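The interaction of AOS with STZ (streptozotocin, a toxin of the insulin-producing beta cells that is used to make rodents diabetic) asks whether AOS changed kidney gene expression differently in mice that had received STZ. It was taken as the difference of 2 differences, STZ+AOS minus STZ and AOS minus control, and used 12 of the 18 kidney libraries of the series. All came from ICR mice of 10 weeks. The groups were STZ with AOS at 10 mg per kg (STZ+AOS, 3 libraries), STZ alone (3 libraries), AOS at 10 mg per kg alone (3 libraries) and control (3 libraries). The other 6 libraries, from STZ mice that received a microbiota transfer (FMT), entered only the shared estimate of spread. AOS is the labels' abbreviation. The STZ dose, the length of the treatments and whether each library came from its own mouse are not stated in the labels, so p-values measure only the spread between these libraries, which may be technical.

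If the 2 treatments acted independently on the log2 scale, their joint effect would be the sum of the single effects, and the interaction would be 0. A positive interaction means that the STZ+AOS libraries lay above that sum, and a negative one that they lay below it. In the kidney, the proximal tubule reabsorbs most of the filtered glucose, phosphate and amino acids and secretes organic acids and drugs, and it depends on mitochondrial metabolism. Injured tubule cells are known to lose this transport programme and to switch on repair, cytokine and matrix genes. Expression is given in FPKM (fragments scaled by gene length and by library size), and every log2 value was computed on FPKM + 1.

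No gene passed the interaction test at an adjusted p of 0.05. Of 12682 genes tested with limma, 0 were higher (0%) and 0 were lower (0%), and the smallest adjusted p was 0.0594, for Nat8f1. At an unadjusted p under 0.05 there were 3646 genes with a positive interaction (28.7%) and 594 with a negative one (4.68%). At an adjusted p under 0.1 there were 1837 positive genes (14.5%) and 306 negative ones (2.41%). The median interaction of all genes was 0.29 on the log2 scale and 76.4% of genes lay above 0. This common shift depended on the scaling of the libraries: the median was 0.02 when libraries were rescaled by the median of ratios and -0.03 when they were quantile normalized. Benjamini-Hochberg adjustment gave many genes the same adjusted p of 0.0771, which is the value of every gene named below unless another is given.

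The 2 arms of the contrast share no library. In STZ mice, AOS went with 436 genes higher (3.44%) and 139 lower (1.1%) in STZ+AOS than in STZ kidneys. Without STZ, 0 genes were higher (0%) and 9 were lower (0.071%) in AOS than in control kidneys, with 521 at an unadjusted p under 0.05. Of the 575 genes called in STZ mice, 549 had an interaction with an unadjusted p under 0.05 and 508 an adjusted p under 0.1. Among all 12682 genes these counts were 4240 and 2143. The interaction contains the same difference that selected the 575 genes, so this overlap is partly built in and is no separate evidence. A call in STZ mice alone does not show a difference between the arms. The standard error of the interaction was larger than that of either arm, with a median over genes of 0.22, against 0.15 for STZ+AOS minus STZ. Read the other way, 4985 genes were higher (39.3%) and 910 lower (7.18%) in STZ+AOS than in AOS kidneys. That split turned with the scaling, to 1407 higher and 1951 lower with quantile normalization and 1907 higher and 2260 lower with median-of-ratios rescaling. There were 0 calls in both directions with log2 Cyp11b1, an adrenal transcript that varied between libraries, as a covariate. In that fit 561 genes had an unadjusted p under 0.05. Cyp11b1 had an interaction of 7.22 itself, so this covariate shares part of the differences between groups and cannot be separated from them. Without the libraries that held over 100 FPKM of Cyp11b1, which leaves 1 STZ+AOS library, the median difference was 0.28, against 0.29 with all libraries. With all libraries that median was -0.03 with quantile normalization and 0.02 with median-of-ratios rescaling. A like median thus does not show that the calls held. The 12 libraries alone gave 2876 higher and 512 lower, and leaving out 1 library at a time gave 2931 (without STZ+AOS replicate 1) to 5693 higher and 564 (without AOS replicate 3) to 1018 lower. Between STZ and control kidneys 0 genes (0%) differed by limma, with 161 at an unadjusted p under 0.05. This count too changed with control replicate 3 and STZ replicate 1. The pair was chosen with earlier results of these data known. Each of the pair resembled libraries of the other group in Kap (below), so leaving out both moves STZ and control apart. Without both, the count was 881 higher and 224 lower in STZ, with 3606 at an unadjusted p under 0.05. It was also 6 higher and 1 lower with no filter on low values and 1 lower with quantile normalization, and 0 in both directions in the other settings.

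Across genes, which are not independent replicates, the arms ran against each other. Pearson's r between the AOS difference with STZ and the AOS difference without STZ was -0.45, Spearman's rho was -0.51, and 75.9% of genes had opposite signs. In 294 genes (2.32%) all STZ+AOS libraries lay above all STZ libraries while all AOS libraries lay below all control libraries. In 64 genes (0.505%) the order was the reverse in both arms. Both arms went up without overlap in 23 genes (0.181%) and down without overlap in 35 (0.276%). This opposition was not seen once control replicate 3 and STZ replicate 1 were both left out: r was 0.03, rho -0.04 and the share of opposite signs 53%. It was not seen either without the libraries over 100 FPKM of Cyp11b1, which keeps STZ replicate 1 but only 1 STZ+AOS library (r 0.05, rho 0.003, 52.3%). With log2 Cyp11b1 as a covariate r was -0.05, rho -0.14 and the share 55.9%.

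**Figure D1:**
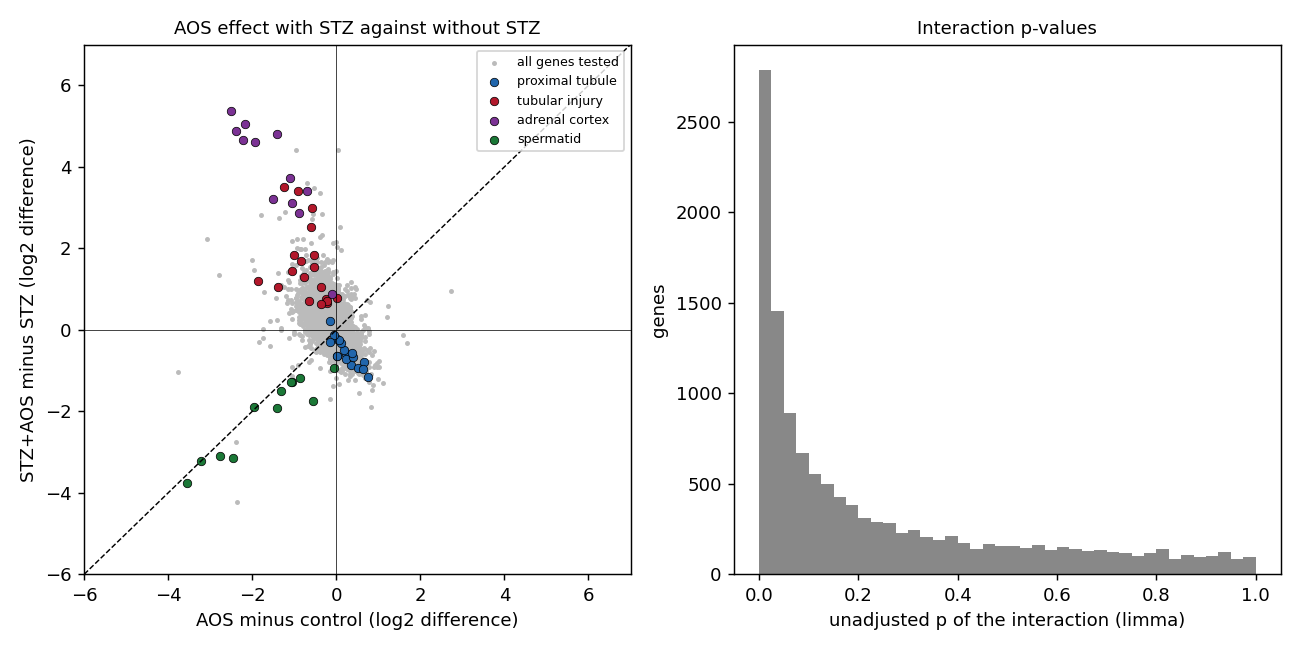
Left, log2 difference of STZ+AOS minus STZ (vertical) against AOS minus control (horizontal) for each gene tested, with 4 gene lists coloured; the dashed line marks equal differences, where the interaction is 0. Right, number of genes by unadjusted limma p of the interaction, in bins of equal width. Proximal tubule genes lie below the line, tubular injury and adrenal cortex genes above it, and spermatid genes along or just below it, and the p-values pile up near 0 although no gene passed after adjustment.

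Libraries within a group differed, and the interaction rests on them. Kap, an androgen-responsive protein made by the proximal tubule and the most abundant transcript on average, had 6174, 35781 and 41198 FPKM in STZ+AOS kidneys and 144830, 63552 and 14615 FPKM in STZ kidneys. It had 144521, 155154 and 153075 FPKM in AOS kidneys and 150876, 145522 and 15798 FPKM in control kidneys. STZ replicate 1 thus had a level like that of AOS and of control replicates 1 and 2, while control replicate 3 was as low as STZ replicate 3. Cdkn1a, the p53-induced inhibitor of the cell cycle, ran the other way, with 112, 76.0 and 155 FPKM in STZ+AOS, 6.52, 62.5 and 80.1 in STZ, 5.20, 3.73 and 4.62 in AOS, and 14.9, 7.11 and 82.6 in control kidneys. Its interaction was 3.72 ± 1.13 (log2 ± SE, adjusted p 0.0784) with all libraries and 1.68 without control replicate 3 and STZ replicate 1. For Kap it was -2.40 ± 1.26 (adjusted p 0.188) with all libraries and -0.57 without these 2.

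Transcripts of 2 other organs were present, of the adrenal cortex unequally between the arms and of the testis about equally. Cyp11b1, the enzyme of the adrenal cortex that makes glucocorticoid, had 316, 14.3 and 276 FPKM in STZ+AOS and 0, 5.13 and 5.13 in STZ kidneys. It had 0.15, 0.06 and 0.06 FPKM in AOS and 0, 0 and 118 in control kidneys, so 3 libraries held over 100 FPKM: STZ+AOS replicates 1 and 3 and control replicate 3. Prm1, a protamine of spermatids, had 20.8, 14.0 and 6.64 FPKM in STZ and 9.07, 9.44 and 14.5 in control kidneys. It was listed at 0 in all STZ+AOS and all AOS libraries. Prm1 was also at 0 in every FMT library, with or without AOS in the label, so its absence was not confined to AOS. Its difference was about the same in both arms (-3.76 with STZ, adjusted p 5.82e-06, and -3.56 without, adjusted p 1.27e-05), so that the interaction was only -0.21 ± 0.37 (adjusted p 0.694). The summed level of 12 adrenal cortex markers ranged from 217 to 3807 FPKM in STZ+AOS, 70.4 to 142 in STZ, 69.3 to 70.9 in AOS and 68.8 to 1107 in control kidneys, with 1 marker at 0 in all AOS libraries and none at 0 throughout the other 3 groups. All 18 proximal tubule markers were tested, and their sum ranged from 5861 to 11800 FPKM in STZ+AOS, 10050 to 16010 in STZ, 14120 to 15340 in AOS and 9983 to 13970 in control kidneys, so the libraries carried the labelled tissue.

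**Figure D2:**
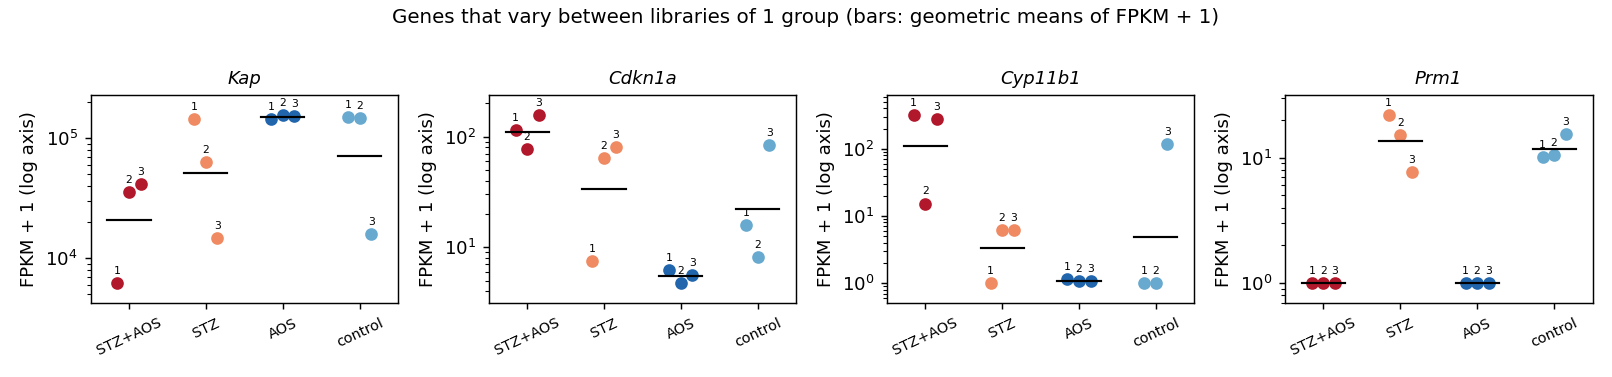
FPKM + 1 on a log axis of Kap, Cdkn1a, Cyp11b1 and Prm1 in each of the 12 libraries, by group; numbers are replicates and bars are geometric means. Control replicate 3 lies far from the other controls for Kap and Cdkn1a, STZ replicate 1 from the other STZ libraries for Cdkn1a; for Kap, STZ replicate 3 and STZ+AOS replicate 1 are the lowest of their groups. Cyp11b1 is above 100 FPKM in 3 libraries, and Prm1 is at 0 in both AOS groups.

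The gene closest to the threshold was Nat8f1 (mm10 chr6:85910154-85915687, minus strand), a kidney member of the Nat8 family of N-acetyltransferases. It had 100, 135 and 104 FPKM in STZ+AOS and 341, 219 and 253 in STZ kidneys. Without STZ it had 306, 323 and 342 FPKM in AOS and 288, 296 and 226 in control kidneys. The STZ+AOS libraries were thus the lowest of the 12, and neither arm overlapped. Its interaction was -1.51 ± 0.22 (adjusted p 0.0594), from -1.24 with STZ (adjusted p 0.00124) and 0.27 without (adjusted p 0.817). If both treatments had acted independently, STZ+AOS would have had 321 FPKM, against a geometric mean of 112. Nat8f1 passed at an adjusted p of 0.0227 without STZ replicate 2, of 0.0436 with genes averaging at least 5 FPKM and of 0.0475 with no filter on low values. Without control replicate 3 and STZ replicate 1 its interaction was -1.21 (adjusted p 0.089). Over all 26 alternatives the adjusted p ranged from 0.00186 to 0.999. Nat8 genes are near-identical copies, and how the counting split reads between them is not stated. Nat8 itself had an interaction of -0.73 ± 0.28 (adjusted p 0.104).

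The other genes with the smallest p and a negative interaction included several enzymes and carriers of mitochondria and small-molecule breakdown. Slc25a10, the mitochondrial dicarboxylate carrier, had 62.3, 59.0 and 54.8 FPKM in STZ+AOS and 127, 118 and 130 in STZ kidneys. Without STZ it had 150, 97.8 and 132 FPKM in AOS and 137, 75.3 and 94.2 in control kidneys, so the groups overlapped only in that arm. Its interaction was -1.41 ± 0.28, and it was -1.36 without control replicate 3 and STZ replicate 1. Cmbl, a cytosolic hydrolase known for activating ester prodrugs, had 120, 182 and 150 FPKM in STZ+AOS, 274, 243 and 249 in STZ, 226, 234 and 234 in AOS and 209, 206 and 235 in control kidneys (interaction -0.87 ± 0.17). All other libraries lay above every STZ+AOS library, and leaving out the same pair of libraries gave -0.88. Dao, which oxidizes D-amino acids, had an interaction of -0.60 ± 0.12. Agxt2, a mitochondrial aminotransferase that breaks down methylated arginine, had -1.28 ± 0.27. Aldh8a1, an aldehyde dehydrogenase, had -0.99 ± 0.21.

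Further genes with a negative interaction came from other processes. Ascc1, a subunit of a transcription coactivator and repair complex, had 40.3, 58.9 and 54.1 FPKM in STZ+AOS and 102, 68.9 and 75.0 in STZ kidneys. It had 96.9, 97.5 and 96.3 FPKM in AOS and 72.5, 77.0 and 75.9 in control kidneys, without overlap in either arm (interaction -1.03 ± 0.20). Bnc2, a zinc finger protein, had -0.57 ± 0.11. Acbd4, which binds acyl-CoA, had -0.68 ± 0.14, from -0.26 with STZ and 0.42 without, neither of which passed. Rxylt1, which adds xylose to the sugar chain of dystroglycan, had -0.75 ± 0.16. C1qtnf12, a secreted hormone also called adipolin, had -1.15 ± 0.25. Fmo1, a drug-oxidizing monooxygenase, was 182, 270 and 261 FPKM in STZ+AOS, 345, 360 and 419 in STZ, 388, 412 and 361 in AOS and 362, 345 and 291 in control kidneys (-0.89 ± 0.19).

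Among genes with a positive interaction the smallest p belonged to Ampd2 (mm10 chr3:108074062-108086651, minus strand), an AMP deaminase of the purine nucleotide cycle. It had 19.7, 12.1 and 17.4 FPKM in STZ+AOS and 7.29, 7.73 and 8.62 in STZ kidneys. The AOS libraries had 8.26, 6.78 and 7.41 FPKM and the control libraries 8.32, 8.32 and 9.21, so neither arm overlapped. Its interaction was 1.13 ± 0.20, from 0.95 with STZ (adjusted p 0.0071) and -0.18 without (adjusted p 0.817). Independent action would have given 6.81 FPKM in STZ+AOS, against a geometric mean of 16.1. Qsox1, a secreted oxidase that forms disulfide bonds, had 15.3, 11.9 and 19.2 FPKM in STZ+AOS, 7.42, 7.80 and 10.3 in STZ, 7.32, 7.88 and 6.38 in AOS and 9.68, 7.24 and 10.9 in control kidneys (1.10 ± 0.23). Without control replicate 3 and STZ replicate 1 the interactions were 1.04 for Ampd2 and 0.90 for Qsox1.

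Signalling and growth genes made up much of the rest. Fgfr1, the receptor that with klotho binds the phosphate hormone FGF23, had 17.2, 14.5 and 17.0 FPKM in STZ+AOS and 9.01, 11.5 and 11.2 in STZ kidneys. It had 9.93, 9.82 and 9.90 FPKM in AOS and 10.4, 10.6 and 12.6 in control kidneys, without overlap in either arm (0.74 ± 0.17). Pde1a, a calmodulin-dependent phosphodiesterase, had 19.8, 20.1 and 21.9 FPKM in STZ+AOS, 12.6, 15.1 and 17.7 in STZ, 14.0, 11.8 and 9.84 in AOS and 15.6, 15.5 and 21.7 in control kidneys (0.96 ± 0.20). Here the arms were of like size in opposite directions, 0.43 with STZ and -0.52 without. Rgs10, which ends G protein signals, behaved alike at 0.61 and -0.58 (1.19 ± 0.24). Mapk6, an atypical MAP kinase, had 0.68 ± 0.14, Kif1b, a kinesin motor, 0.60 ± 0.12, and Pitpnm2, which moves phosphatidylinositol between membranes, 0.85 ± 0.16. Aifm2, a suppressor of ferroptosis, had 1.12 ± 0.25. Among genes of RNA and protein synthesis, Phf3 had 0.71 ± 0.17 and Mars, the methionyl-tRNA synthetase, 0.61 ± 0.14.

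**Figure D3:**
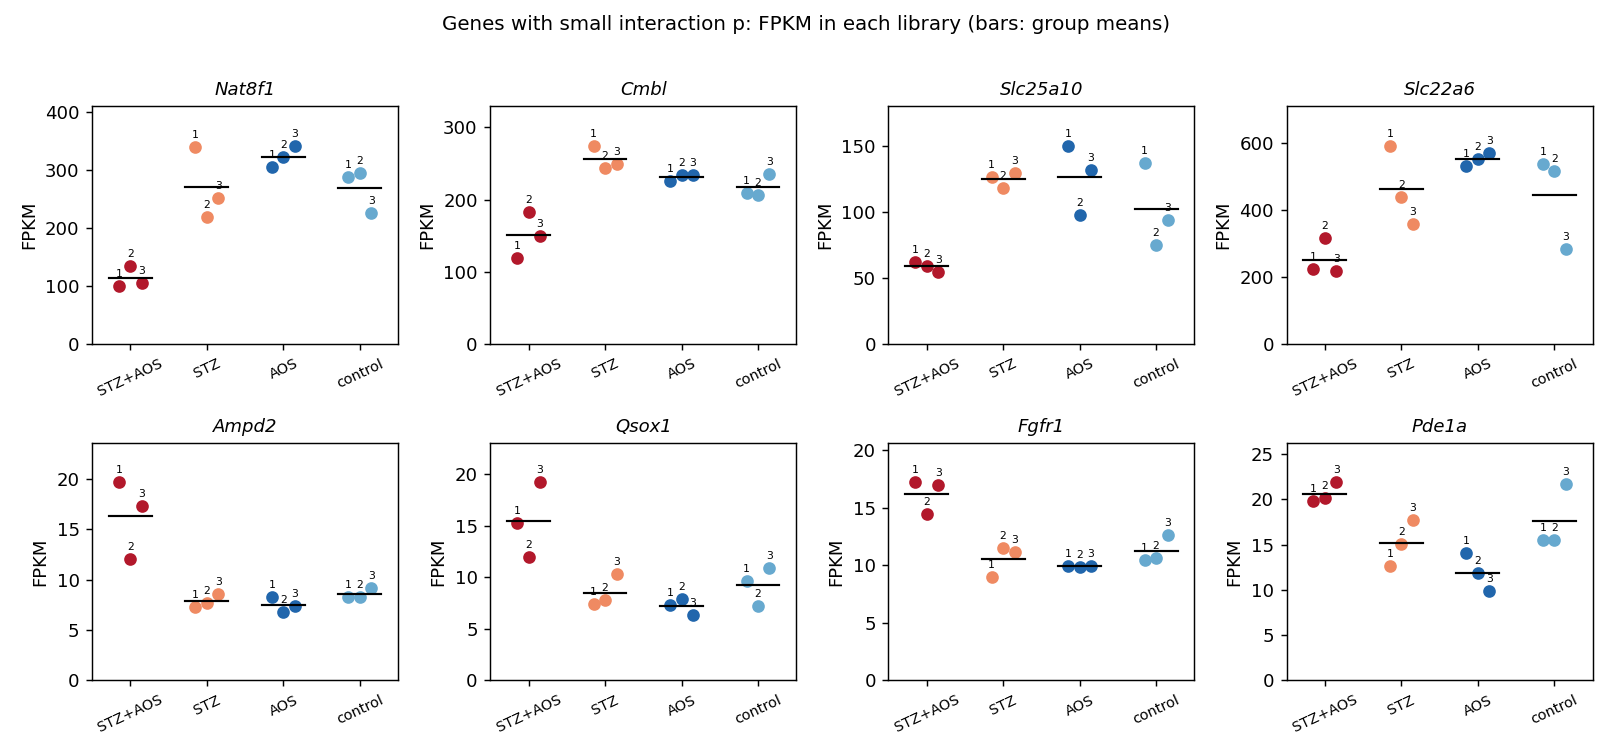
FPKM (linear axis from 0) of 4 genes with a negative and 4 with a positive interaction in each of the 12 libraries, by group; numbers are replicates and bars are group means. In the upper row the STZ+AOS libraries lie below STZ, and in the lower row above it, while AOS and control lie close together or in the opposite order; control replicate 3 is low for Slc22a6.

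In all, 51 gene lists were described. They were chosen with earlier results of these data known, so their counts are a description, set beside the share of all genes tested above 0 (76.4%) and the median of all genes (0.29). No member of any list passed the interaction test. In bulk kidney, fewer cells of a type and less RNA per cell cannot be told apart.

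Proximal tubule genes lay on the negative side. Of 18 markers 1 was above 0, 8 had a negative interaction with an unadjusted p under 0.05 (4.68% of all genes did), and the median was -0.74. Slc22a6, the basolateral organic anion transporter OAT1, had 222, 316 and 218 FPKM in STZ+AOS and 592, 438 and 357 in STZ kidneys. It had 532, 552 and 570 FPKM in AOS and 537, 516 and 285 in control kidneys, so STZ+AOS lay below STZ throughout and control replicate 3 fell out of its group. The interaction was -1.22 ± 0.32, and -0.74 without control replicate 3 and STZ replicate 1. Slc34a1, the sodium-phosphate cotransporter of the brush border, had 1288, 1898 and 1458 FPKM in STZ+AOS, 3086, 2153 and 1806 in STZ, 2719, 2633 and 2908 in AOS and 2530, 2830 and 1762 in control kidneys. Both arms overlapped, and the interaction was -0.82 ± 0.29 (adjusted p 0.0914). Lrp2, the endocytic receptor megalin, had -0.66 ± 0.22 (adjusted p 0.0864). Miox, which opens the ring of inositol, had -1.58 ± 0.54 (adjusted p 0.0901).

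The median of the proximal tubule list kept its sign in all 26 alternative settings, at -0.43 without control replicate 3 and STZ replicate 1 and -0.27 with log2 Cyp11b1 as a covariate.

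Other transporters and metabolic lists went partly the same way. Of 14 organic anion and cation transporters 5 were above 0, with a median of -0.44. In 7 the interaction was negative at an unadjusted p under 0.05 (4.68% of all genes). Slc22a12, the urate transporter URAT1, had -1.21 ± 0.35 and Slc22a8, the organic anion transporter OAT3, -1.45 ± 0.54 (adjusted p 0.101). Slc13a3, the sodium-dicarboxylate cotransporter, had -0.94 ± 0.25. Slc20a1, a phosphate transporter found in most cells, went the other way, with 60.6, 28.9 and 26.4 FPKM in STZ+AOS, 10.8, 16.8 and 19.5 in STZ, 11.5, 11.7 and 10.7 in AOS and 13.2, 11.3 and 21.8 in control kidneys (1.55 ± 0.39). STZ+AOS replicate 1 was the highest, and all STZ+AOS libraries lay above the rest. Slc6a20b, an imino acid transporter with a near-identical copy, had -1.09 ± 0.24.

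Androgen-responsive proximal tubule genes had the lowest median of all lists, -1.33, with 1 of 14 tested genes above 0. Here the size varied with the libraries left out. Cyp4b1, a fatty acid and drug hydroxylase, had 458, 635 and 1002 FPKM in STZ+AOS, 2841, 1027 and 656 in STZ, 2807, 2837 and 2645 in AOS and 2700, 2477 and 492 in control kidneys (-1.80 ± 0.80, adjusted p 0.137). Slc22a28, an organic anion transporter family member, had -1.87 ± 0.86 (adjusted p 0.146). The median was -0.33 without control replicate 3 and STZ replicate 1, and it turned to 0.87 with log2 Cyp11b1 as a covariate. Of 23 drug and steroid metabolism genes 10 were above 0 (median -0.68). Among these Cyp2j5, an arachidonic acid epoxygenase, had -1.12 ± 0.32. Khk, the fructokinase, had -0.69 ± 0.22 (adjusted p 0.0808), whereas Slc2a1, the basolateral glucose transporter GLUT1, had 1.07 ± 0.35 (adjusted p 0.0857) and Pkm, the muscle-type pyruvate kinase, 1.31 ± 0.46 (adjusted p 0.091). Ace, the angiotensin-converting enzyme of the brush border, had -1.71 ± 0.74 (adjusted p 0.128). Of 23 nuclear subunits of oxidative phosphorylation 4 were above 0, with a small median of -0.13, and 6 were negative at an unadjusted p under 0.05 (4.68% of all genes). Of 25 proteasome subunits 7 were above 0 (median -0.10).

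Tubular injury genes lay on the positive side: 19 of the 20 listed were tested, Sox9 being too low, and 19 of these were above 0, with a median of 2.38 and 14 at an unadjusted p under 0.05 (28.7% of all genes). Havcr1, which encodes the injury marker KIM-1, had 423, 32.0 and 7.45 FPKM in STZ+AOS, 1.30, 5.87 and 5.16 in STZ, 2.27, 1.63 and 2.06 in AOS and 2.03, 1.85 and 19.4 in control kidneys. The STZ+AOS libraries differed from each other more than most groups did, and the interaction was 4.33 ± 1.45 (adjusted p 0.0883). Lcn2, the iron-binding protein NGAL, had 772, 62.8 and 27.2 FPKM in STZ+AOS, 1.90, 6.19 and 44.2 in STZ, 3.57, 3.41 and 2.06 in AOS and 4.99, 2.72 and 35.1 in control kidneys (4.74 ± 1.62, adjusted p 0.0899). STZ+AOS replicate 3 was below STZ replicate 3 and control replicate 3 for this gene. Cd44, a hyaluronan receptor of regenerating tubules, had 6.31, 1.58 and 12 FPKM in STZ+AOS, 0.48, 0.82 and 1.02 in STZ, 0.48, 0.35 and 0.54 in AOS and 0.66, 0.59 and 2.61 in control kidneys (2.38 ± 0.61), and neither of its arms overlapped. Without control replicate 3 and STZ replicate 1 the interactions were 2.9 for Havcr1, 2.89 for Lcn2 and 1.87 for Cd44, and the list's median was 1.34. It was 0.49 with log2 Cyp11b1 as a covariate.

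Of 18 p53 targets 18 were above 0, with a median of 1.44 and 13 at an unadjusted p under 0.05 (28.7% of all genes). Besides Cdkn1a, Gadd45a, a stress-induced brake on growth, had 39.3, 44.0 and 33.4 FPKM in STZ+AOS, 27.6, 31.6 and 33.3 in STZ, 16.5, 16.1 and 23.9 in AOS and 24.5, 27.1 and 32.9 in control kidneys (0.89 ± 0.20). Most of this came from the arm without STZ, -0.57 against 0.32, and neither arm passed. Gadd45b had 2.21 ± 0.78 (adjusted p 0.0928) and the stress kinase Plk3 1.71 ± 0.59 (adjusted p 0.0901). The list's median was 0.45 without control replicate 3 and STZ replicate 1, and 0.01 with log2 Cyp11b1 as a covariate. Of 14 immediate early genes tested 14 were above 0 (median 1.01), but 3 had an unadjusted p under 0.05 (28.7% of all genes did). Their median was 0.59 without control replicate 3 and STZ replicate 1, and 0.01 with log2 Cyp11b1 as a covariate, where the median of all genes was 0.05. Jund, an AP-1 subunit, had 88.4, 73.5 and 77.6 FPKM in STZ+AOS, 47.4, 47.2 and 62.4 in STZ, 47.0, 48.2 and 42.4 in AOS and 47.8, 43.4 and 57.3 in control kidneys (0.71 ± 0.17). All STZ+AOS libraries lay above all others. Fosl2, also an AP-1 subunit, had 1.90 ± 0.57 and Myc 2.12 ± 0.64 (adjusted p 0.0774).

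Of 10 genes of the NF-kB pathway and its feedback 10 were above 0, with a median of 1.04 and 7 at an unadjusted p under 0.05 (28.7% of all genes). Nfkb2, the precursor of p52, had 17.5, 9.47 and 8.89 FPKM in STZ+AOS, 4.46, 6.24 and 7.5 in STZ, 4.84, 4.82 and 4.34 in AOS and 5.85, 4.32 and 8.35 in control kidneys (1.14 ± 0.33). Its partner Relb had 1.41 ± 0.41 and Rela, the p65 subunit, 0.69 ± 0.19. Tnfaip3, the feedback inhibitor A20, had 3.63, 2.38 and 2.87 FPKM in STZ+AOS, 0.89, 1.11 and 2.05 in STZ, 1.24, 1.2 and 0.85 in AOS and 0.88, 1.01 and 2.48 in control kidneys (0.95 ± 0.31, adjusted p 0.0853). For all 4 genes STZ+AOS lay above STZ in every library. They were named for the smallest interaction p of the list. The interaction contains this difference, so that order is partly built in. The list's median was 0.58 without control replicate 3 and STZ replicate 1 and 0.18 with log2 Cyp11b1 as a covariate.

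The promoters of Nfkb2 and Tnfaip3 are shown because each holds a match to the kB motif, searched as GGGNNTTTC. In both, a match begins 11 bases upstream of a RefSeq start. The motif stood in 4 of the 7 listed genes with a promoter and in 4.37% of 9998 genes tested, on either strand. GGACTTTCC, which overlaps it, was in 2 of the 7 (0.48% of genes), and GGGNNTTCC in 4 (7.3%). A gene counted once if any of its windows, the 250 bases upstream of a RefSeq start, matched. Of the other lists' promoters searched, the AP-1 motif TGANTCA and the CArG box were in 0 of the 11 immediate early promoters (5.6% and 0.03% of genes). TGACTCA was in 2 of 15 tubular injury promoters (4.07%), a spaced pair of p53 cores in 1 of 14 p53 target promoters (0.37%), that of Cdkn1a, and the antioxidant element TGACNNNGC in 3 of 10 NRF2 promoters (14%). Coordinates are chr19:46304487-46304736 on the plus strand for Nfkb2 and chr10:19015411-19015660 on the minus strand for Tnfaip3 (sequences from RefSeq, GRCm38.p6), and matches are in capitals. In Tnfaip3 there are 2, both on the opposite strand. RefSeq gives 3 start windows for Nfkb2 and 2 for Tnfaip3, and the one with the match is shown. By GENCODE M21 the genes begin further upstream, at 46304320 for Nfkb2 and 19015657 for Tnfaip3. The Nfkb2 window thus lies inside the annotated gene, and the Tnfaip3 window almost wholly inside it.
Nfkb2: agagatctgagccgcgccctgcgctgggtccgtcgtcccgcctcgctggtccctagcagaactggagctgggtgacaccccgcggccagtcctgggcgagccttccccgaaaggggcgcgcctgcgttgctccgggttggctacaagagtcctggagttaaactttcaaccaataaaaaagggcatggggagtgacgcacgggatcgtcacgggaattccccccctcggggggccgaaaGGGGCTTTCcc
Tnfaip3: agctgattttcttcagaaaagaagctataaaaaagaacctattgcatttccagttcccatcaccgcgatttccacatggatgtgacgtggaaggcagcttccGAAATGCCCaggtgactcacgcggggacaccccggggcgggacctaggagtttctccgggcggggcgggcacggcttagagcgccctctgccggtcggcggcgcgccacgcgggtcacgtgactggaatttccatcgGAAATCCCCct

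Inflammatory genes downstream of such factors were mixed in strength. Of 15 chemokines and cytokines tested, out of 19 listed, 14 were above 0 (median 0.93). In 6 the interaction was positive at an unadjusted p under 0.05 (28.7% of all genes), not far from the share of all genes. Tnfrsf12a, the receptor of TWEAK, had 232, 63.3 and 65.0 FPKM in STZ+AOS, 36.9, 36.5 and 48.9 in STZ, 35.4, 30.6 and 28.7 in AOS and 41.6, 34.4 and 45.9 in control kidneys (1.62 ± 0.50, adjusted p 0.0796). Of 13 complement and fibrinogen genes 12 were above 0 (median 1.06). C3, the central complement protein, had 137, 81.6 and 64.9 FPKM in STZ+AOS and 10.8, 58.8 and 86.8 in STZ kidneys, which overlapped. It had 7.29, 8.98 and 17.5 FPKM in AOS and 29.1, 20.7 and 110 in control kidneys, so its interaction of 3.06 ± 1.00 (adjusted p 0.0846) came more from the arm without STZ (-1.86) than from the arm with it (1.2). Of 22 interferon-stimulated genes 21 were above 0 (median 0.53), but 0 had an unadjusted p under 0.05, and the median was -0.29 without control replicate 3 and STZ replicate 1.

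Matrix genes lay on the positive side. Of 23 fibroblast and fibrosis genes tested 23 were above 0, with a median of 1.23 and 18 at an unadjusted p under 0.05 (28.7% of all genes). Pdgfra, a receptor of interstitial fibroblasts, had 6.59, 5.15 and 5.59 FPKM in STZ+AOS, 1.30, 2.62 and 3.45 in STZ, 2.54, 1.55 and 1.63 in AOS and 1.96, 2.23 and 3.64 in control kidneys (1.32 ± 0.34). All STZ+AOS libraries lay above the other 9. Col4a1 and Col4a2, the paired basement membrane collagen chains, had 1.00 ± 0.29 and 1.02 ± 0.30. Lox, which cross-links collagen, had 2.00 ± 0.53, from 1.48 with STZ (adjusted p 0.0478) and -0.52 without. The list's median was 0.70 without control replicate 3 and STZ replicate 1, 0.48 with log2 Cyp11b1 as a covariate and 1.00 without the 3 libraries rich in Cyp11b1.

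Stress and hormone-responsive genes differed in their order within STZ+AOS. Mt2, Pdk4, Cebpd, Hmox1 and Srxn1 were higher in replicates 1 and 3 than in replicate 2. In Lcn2, G6pdx and Txnrd1, which belong to the same lists, replicate 3 lay below replicate 2. Adrenal transcripts were highest in replicates 1 and 3, but replicate 2 held them too, with 14.3 FPKM of Cyp11b1. A link between these genes and adrenal transcripts was not tested. Of 13 glucocorticoid-responsive genes and metallothioneins 13 were above 0, with a median of 1.87 that was 0.69 without control replicate 3 and STZ replicate 1 and 0.08 with log2 Cyp11b1 as a covariate. Mt2, a metal-binding metallothionein, had 1019, 364 and 634 FPKM in STZ+AOS, 81.2, 290 and 518 in STZ, 64.2, 70.7 and 56.4 in AOS and 73.7, 71.1 and 557 in control kidneys (2.58 ± 0.99, adjusted p 0.105). Its direction turned to -0.50 with log2 Cyp11b1 as a covariate. Pdk4, the kinase that blocks pyruvate entry into mitochondria, had 21.9, 15.1 and 26.6 FPKM in STZ+AOS, 3.55, 4.79 and 10.7 in STZ, 3.26, 3.44 and 4.46 in AOS and 3.31, 3.96 and 6.01 in control kidneys (1.86 ± 0.52). Every STZ+AOS library was above every other one. Cebpd, an acute-phase transcription factor, had 2.20 ± 0.77 (adjusted p 0.0911). Of 13 NRF2 antioxidant genes tested 11 were above 0 (median 0.65), with haem oxygenase Hmox1 at 1.56 ± 0.45 and sulfiredoxin Srxn1 at 1.95 ± 0.63 (adjusted p 0.0831).

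Lipid genes split. Of 18 cholesterol synthesis and uptake genes 11 were above 0. At an unadjusted p under 0.05, 4 were positive (28.7% of all genes) and 4 negative (4.68%). The median was 0.20, which turned to -0.06 when libraries were rescaled by the median of ratios. Dhcr7, the last enzyme of cholesterol synthesis, had 44.2, 13.0 and 41.5 FPKM in STZ+AOS, 13.3, 14.5 and 9.18 in STZ, 13.0, 11.5 and 14.0 in AOS and 13.3, 16.8 and 20.7 in control kidneys (1.55 ± 0.46). It was high only in the 2 STZ+AOS libraries with Cyp11b1 over 100 FPKM, and its interaction was 0.31 without the libraries rich in Cyp11b1. Cyp51, an earlier enzyme of the same pathway, had -1.13 ± 0.41 (adjusted p 0.0947). Of 15 fatty acid synthesis genes 12 were above 0 (median 0.55), with the desaturase Scd2 at 1.77 ± 0.48 and the elongase Elovl5 at 0.79 ± 0.20. Of 22 genes of fatty acid oxidation and PPAR-alpha 17 were above 0 (median 0.42). Cyp4a14, a fasting-induced fatty acid hydroxylase, had 116, 234 and 109 FPKM in STZ+AOS, 1.26, 34.0 and 375 in STZ, 1.54, 1.15 and 1.23 in AOS and 8.56, 2.42 and 227 in control kidneys, which left an interaction of 5.31 ± 2.16 (adjusted p 0.116).

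Genes of other kidney cell types lay above 0 more often than proximal tubule genes. This was so for 10 of 10 podocyte genes (median 0.93), 11 of 11 endothelial genes (0.76), 10 of 10 principal cell genes (0.71), 10 of 10 macrophage and monocyte genes tested (0.75), and 9 of 10 genes of the thick ascending limb (0.50). Of the distal and connecting tubule genes 8 of 10 were above 0 (0.38), as were 8 of 10 intercalated cell genes (0.36), near the 76.4% and 0.29 of all genes. Without control replicate 3 and STZ replicate 1 the median of all genes was 0.13. Podocyte (0.21), endothelial (0.34) and macrophage genes (0.37) had higher medians than that, and principal cell (0.06), thick ascending limb (0.12), intercalated (0.10) and distal and connecting tubule genes (-0.18) lower ones. With log2 Cyp11b1 as a covariate those of podocyte (-0.21), endothelial (-0.04) and principal cell genes (-0.10) turned, as did that of distal and connecting tubule genes (-0.24). Synpo, a podocyte actin-binding protein, had 14.8, 12.1 and 10.5 FPKM in STZ+AOS, 3.81, 8.40 and 8.14 in STZ, 4.35, 4.15 and 3.46 in AOS and 4.69, 4.44 and 11.7 in control kidneys (1.40 ± 0.41). Mrc1, the macrophage mannose receptor, had 2.20, 3.1 and 1.74 FPKM in STZ+AOS, 1.25, 1.04 and 1.36 in STZ, 1.10, 0.69 and 1.03 in AOS and 1.71, 1.2 and 2.55 in control kidneys (1.10 ± 0.26). Neither gene overlapped between groups in either arm. Cd14, the lipopolysaccharide co-receptor, had 2.81 ± 0.79. Summed macrophage markers ranged from 120 to 348 FPKM in STZ+AOS, 82.2 to 152 in STZ, 62.5 to 94.0 in AOS and 91.4 to 174 in control kidneys, and their part in the other results was not tested. Cldn10, a claudin of the thick ascending limb and proximal tubule, had -1.06 ± 0.29 and Fxyd2, a regulator of the sodium pump, -0.51 ± 0.16 (adjusted p 0.0786), against the direction of their lists.

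A few genes differed from the common pattern. H2-Eb1, a class II antigen-presenting chain, had 22.6, 16.1 and 5.96 FPKM in STZ+AOS, 1.34, 1.34 and 1.65 in STZ, 29.7, 17.6 and 6.48 in AOS and 16.8, 13.5 and 13.0 in control kidneys. It was low in STZ alone, and the interaction of 2.45 ± 0.72 was 2.49 without control replicate 3 and STZ replicate 1. The class II genes Cd74 (203, 415 and 330 FPKM in STZ, 170, 191 and 660 in control) and H2-Aa were not low in STZ. Of 8 class II genes tested 8 were above 0 (median 0.61), but 1 had an unadjusted p under 0.05 (28.7% of all genes). Their median turned negative without the same pair of libraries. Cry1, a repressor of the circadian clock, had 2.87, 2.14 and 3.93 FPKM in STZ+AOS, 1.75, 1.09 and 2.68 in STZ, 0.95, 0.89 and 0.90 in AOS and 3.84, 2.55 and 2.79 in control kidneys. Its interaction of 1.57 ± 0.38 came mainly from the arm without STZ (-1.07) and was 1.61 without the same pair of libraries. Klk1b5, a tissue kallikrein with many near-identical copies, had 2.59, 3.39 and 2.65 FPKM in STZ+AOS, 2.9, 2.59 and 3.13 in STZ, 1.76, 1.94 and 1.84 in AOS and 3.72, 3.16 and 4.43 in control kidneys. It was lower in AOS than in control kidneys (-0.74, adjusted p 0.0464) with 0.00 between STZ+AOS and STZ, giving an interaction of 0.73 ± 0.18, and it was the only one of the 9 genes called in the arm without STZ whose interaction had an unadjusted p under 0.05. The other 8 were spermatid genes.

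**Figure D4:**
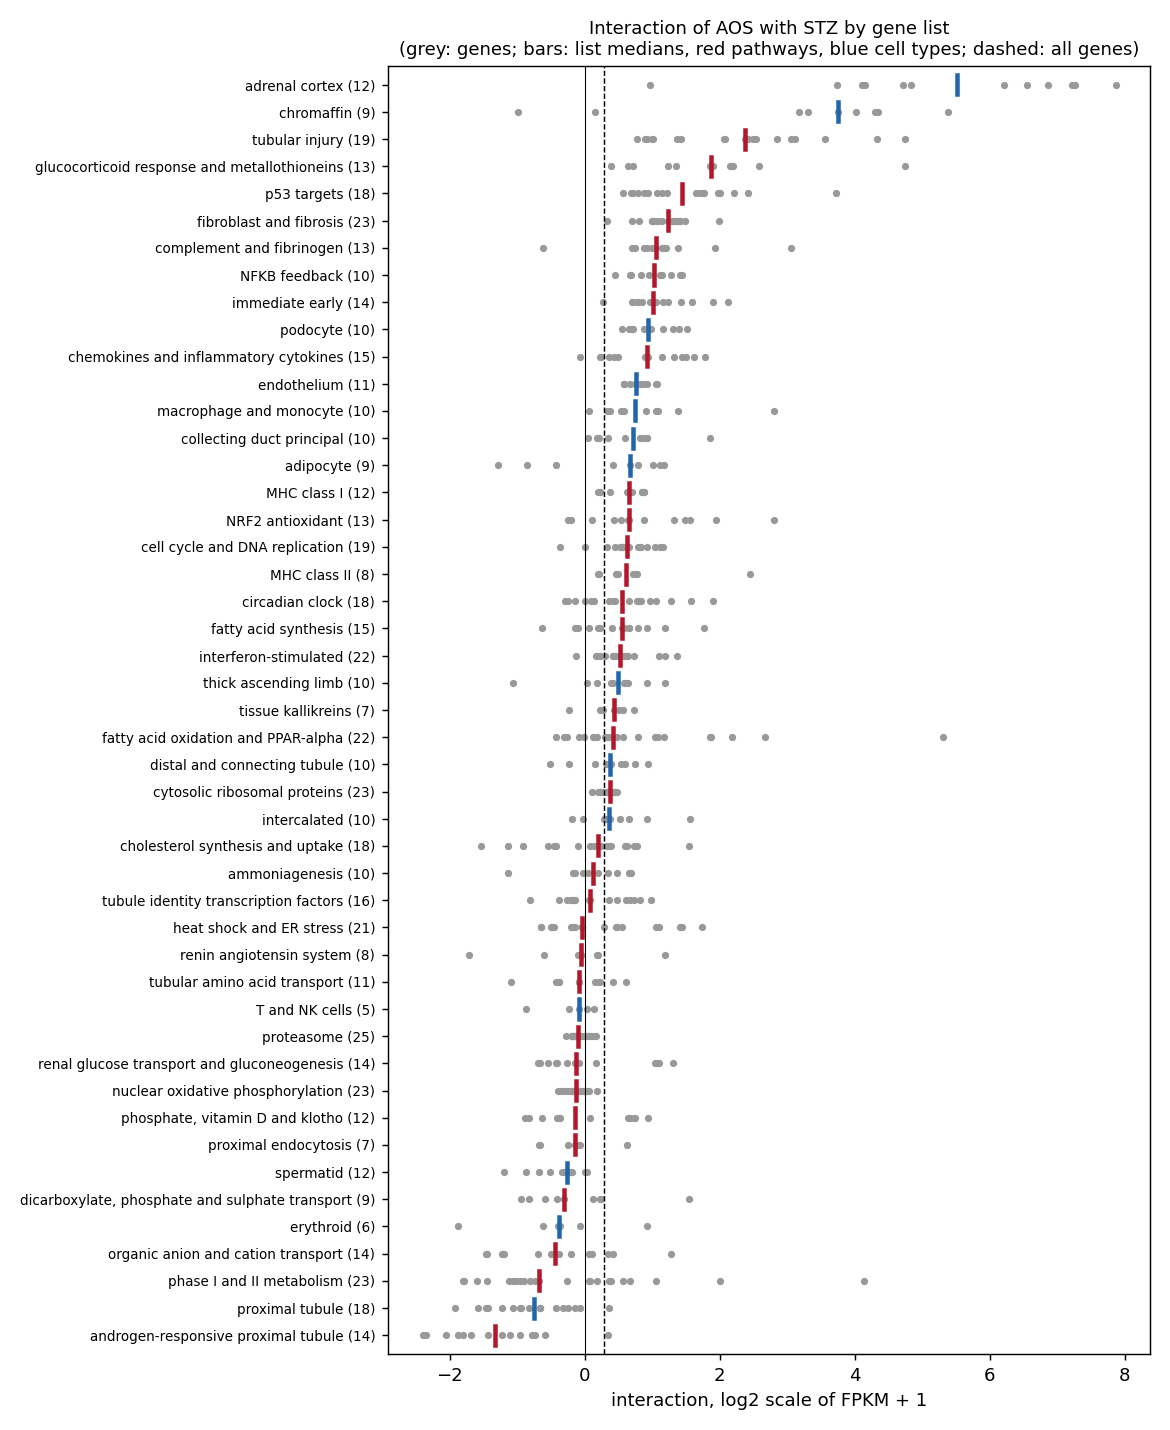
Interaction (log2 scale of FPKM + 1) of each gene tested in each list of at least 5 such genes; grey points are genes, bars are medians (red for pathways, blue for cell type markers), the solid line is 0 and the dashed line the median of all genes, 0.29. Adrenal cortex, chromaffin and tubular injury genes have the highest medians and androgen-responsive and proximal tubule genes the lowest.

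Adrenal cortex and chromaffin genes had the largest medians, 5.52 for 12 of 12 genes above 0 and 3.76 for 8 of 9. Several of them passed the filter on low values mainly through the libraries in which they were high. Pnmt, which makes adrenaline, had 23, 1.31 and 29.5 FPKM in STZ+AOS, 0, 0 and 0.22 in STZ, 0 in every AOS library and 0, 0 and 2.04 in control kidneys (4.01 ± 0.97). Chga, a protein of hormone granules, had 63.5, 2.53 and 64.8 FPKM in STZ+AOS and 0, 0.16 and 0.32 in STZ kidneys (5.38 ± 1.29). Chga was listed at 0, 0.04 and 0.08 FPKM in AOS and 0, 0 and 7.31 FPKM in control kidneys. In both genes STZ+AOS replicates 1 and 3 were the highest and control replicate 3 came next, above STZ+AOS replicate 2. Of 12 spermatid genes 11 were lower in STZ+AOS than in STZ (1.1% of all genes were) and 8 in AOS than in control (0.071%), with a median interaction of -0.27. Meig1, a meiosis gene, had 0.32, 0 and 0 FPKM in STZ+AOS, 3.24, 2.34 and 2.56 in STZ, 0.57, 1.33 and 1.51 in AOS and 2.5, 2.09 and 1.74 in control kidneys, with the largest interaction of its list in size (-1.19 ± 0.30). Summed chromaffin markers ranged from 72.8 to 420 FPKM in STZ+AOS, 72.3 to 103 in STZ, 74.8 to 107 in AOS and 68.5 to 107 in control kidneys. Among the 10 chromaffin markers, 5 were at 0 in all AOS libraries and 1 in all STZ libraries. None was at 0 throughout STZ+AOS or control. The sum in AOS kidneys thus came from the remaining markers. Of the 13 spermatid markers listed, 6 were at 0 in all STZ+AOS and 9 in all AOS libraries, and none was at 0 throughout STZ or control. The part of these transcripts in the interaction of kidney genes was not tested. The settings with Cyp11b1 cannot decide it. Cyp11b1 itself had an interaction of 7.22, so as a covariate it shares part of the differences between groups. Leaving out the libraries rich in it leaves 1 STZ+AOS library.

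The interaction's calls turned on single libraries in both directions. Without STZ replicate 3, 2582 genes were higher and 462 lower. Without STZ+AOS replicate 2, 629 were higher and 164 lower, and 696 of these 793 genes (87.8%) were among the 3044 called without STZ replicate 3 (22.9% of that list). Rescaling each library to its total without Kap gave 768 higher and 57 lower, of which 821 of 825 were in the same list of 3044. Leaving out control replicate 3 and STZ replicate 1 together gave 0 calls by limma and 1733 genes at an unadjusted p under 0.05, against 4240 with all libraries. With log2 Cyp11b1 as a covariate there were 0 calls, 480 genes at an unadjusted p under 0.05 and a smallest adjusted p of 0.868. Without the 3 libraries rich in Cyp11b1, which leaves 1 STZ+AOS library assumed to vary like the other groups, there were 0 calls and 1399 such genes. Of 100 genes followed through the settings, all 100 kept their direction without control replicate 3 and STZ replicate 1, without the libraries rich in Cyp11b1 and under both rescalings of the whole library. With the Cyp11b1 covariate 94 of 99 did. Most of these genes were named for a small interaction p in these data, and the settings share most libraries. Kept directions are therefore partly built in. At an adjusted p under 0.05 by limma, 0 passed without control replicate 3 and STZ replicate 1, under both rescalings or with the covariate. Without STZ replicate 3, 91 passed, and without STZ+AOS replicate 2, 66 did.

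**Figure D5:**
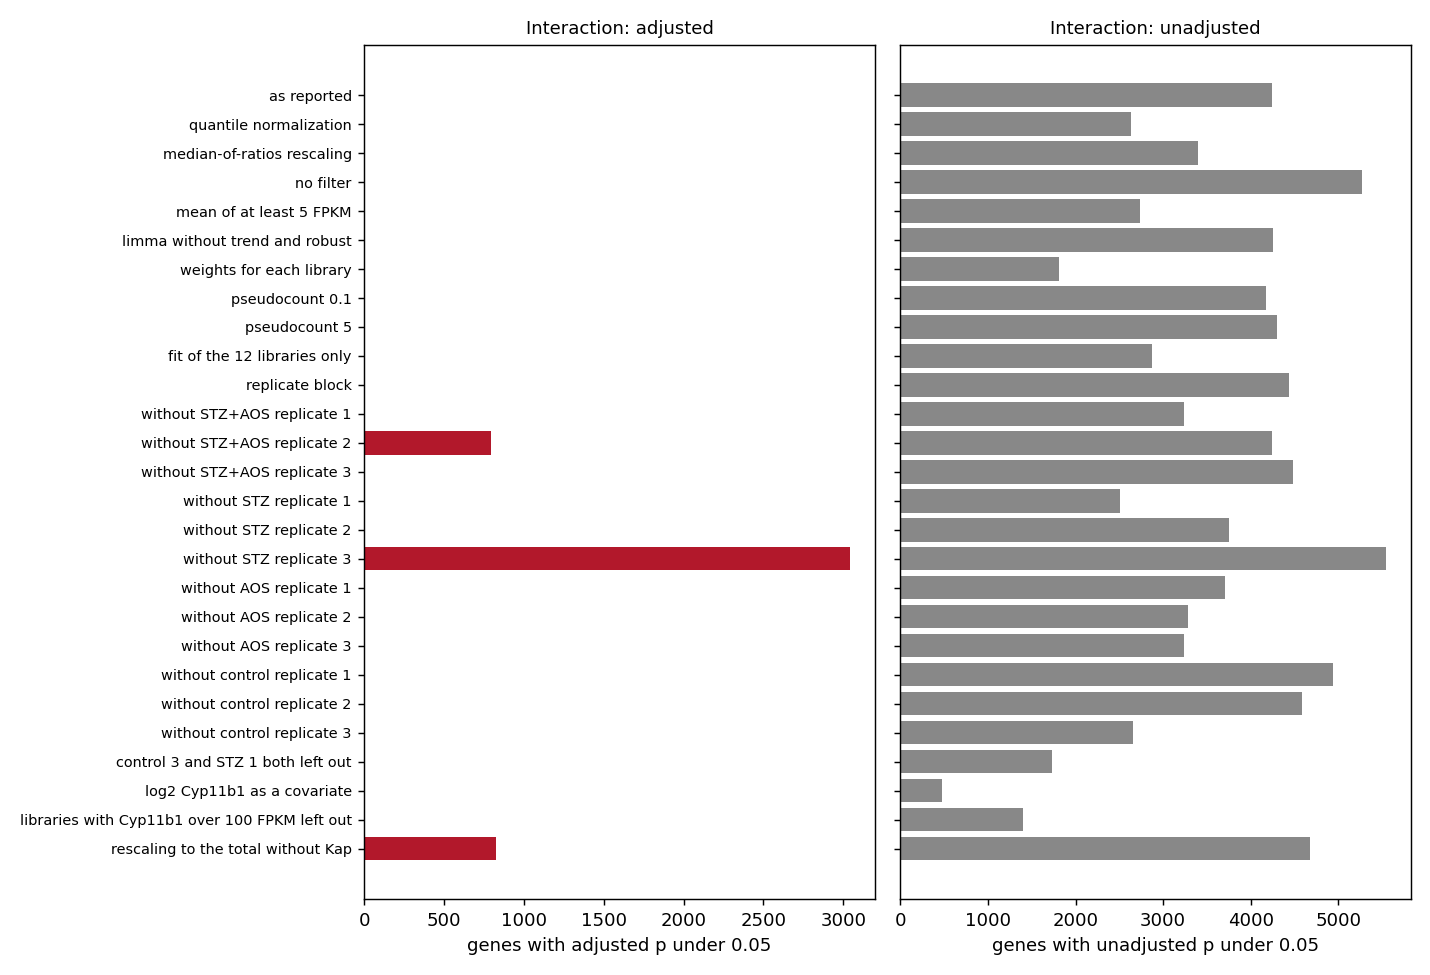
Number of genes whose interaction had an adjusted p under 0.05 (left) and an unadjusted p under 0.05 (right) by limma, as reported and in each of the 26 alternative settings; bars start at 0. More than a few calls appear in 3 settings, and the unadjusted count is lowest, at 480, with log2 Cyp11b1 as a covariate.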

How the data were processed

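Kidney RNA was sequenced and 1 table of 19542 gene symbols in 18 libraries was deposited. Its values were taken as FPKM, as deposited by the authors: they are not whole, and value times gene length sums to nearly the same total in every library. Per the submitters' processing notes, Bowtie 0.12.2 and mm10 were used, and the counting tool is not given in the sources used here. FPKM keeps no read depth, so no counting interval is given. Levels are compared between libraries per gene.

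Genes that reached 1 FPKM in 3 or more of the 18 libraries were kept (12682 genes), and their log2(FPKM + 1) was fitted with limma 3.58.1 (R 4.3.3, trend and robust settings), with 1 mean per group over all 6 groups. The contrast was (STZ+AOS minus STZ) minus (AOS minus control), two-sided, with Benjamini-Hochberg adjustment over all 12682 genes and a threshold of 0.05. The pseudocount understates changes of low genes. The steps were tested on simulated data. Named genes were the 5 with the smallest p in each direction, the 10 in each direction with a mean of at least 10 FPKM, up to 4 per list, and Kap, Cdkn1a, Cyp11b1 and Prm1. Members, lists and alternatives were chosen with earlier results of these data known. A further 6 genes, H2-Ea-ps, Hbb-bs, Hbb-bt, Gm14305, Gm14295 and Gm14296, were chosen after their values were seen. No pair of libraries was identical. Coordinates are from GENCODE M21 (18990 symbols matched) and promoters from RefSeq. A few results are not reported here.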

Additional observations from a re-analysis of the deposited data

How the results depend on the processing

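The interaction gave 0 genes higher and 0 lower as reported. With no filter there were 2 higher (Zap70 and Ms4a4a) and 1 lower (Nat8f1). A mean of at least 5 FPKM gave 1 lower, and rescaling to the total without Kap gave 768 higher and 57 lower. Leaving out 1 library at a time gave 0 to 2582 higher and 0 to 462 lower, the highest without STZ replicate 3. The other settings gave 0 in both directions, and the cause was not tested.

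For STZ+AOS against STZ (436 higher, 139 lower), counts higher and lower were 37 and 91 with quantile normalization, 219 and 475 with median-of-ratios rescaling, 751 and 375 with no filter, 245 higher with a mean of at least 5 FPKM, 0 and 9 with library weights, 164 and 78 with a pseudocount of 0.1, 783 higher with a pseudocount of 5, and 0 and 9 in a fit of the 12 libraries only. They were 7 and 13 without control replicate 3 and STZ replicate 1, 0 and 7 with log2 Cyp11b1 as a covariate, 5 and 5 without the libraries rich in Cyp11b1, and 2300 higher without Kap in the total. Leaving out 1 library at a time gave 0 to 2762 higher and 11 to 587 lower. The highest counts came without STZ replicate 3, and 0 were higher without STZ replicate 1 or without STZ replicate 2. For AOS against control (0 higher, 9 lower), no filter gave 2 and 38, library weights 6 and 21, a pseudocount of 0.1 gave 1 higher, and quantile normalization gave 4 lower. A mean of at least 5 FPKM and a pseudocount of 5 each gave 1 lower, and the 12-library fit and the fit without the libraries rich in Cyp11b1 each gave 4 lower. Leaving out 1 library at a time gave 0 to 2 higher and 4 to 12 lower.

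Most same-numbered libraries of different groups did not deviate together: of 18 pairs, 3 had a correlation over 0.1 (range -0.19 to 0.67). These were STZ and control replicates 3 (0.67), STZ and control replicates 1 (0.54), and STZ+AOS and control replicates 2 (0.17). STZ replicate 1 also correlated with control replicate 2 (0.59), so a shared number cannot be told apart from single libraries. In all, 4 of 12 libraries correlated best with their own number. With the replicate number as a block the interaction again had 0 calls in each direction, and STZ+AOS against STZ had 903 higher and 213 lower. Directions reversed with log2 Cyp11b1 as a covariate for Cyp4b1 (0.28), Slc22a28 (0.52), Ace (0.20), Mt2 (-0.50) and Kap (0.93), and without STZ replicate 1 for Prm1 (0.13, with a range of -0.62 to 0.13 over the libraries left out in turn). FPKM carries no depth, so the counting error of low genes is unknown.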

Other observations

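Genes chosen after their values were seen gave patterns outside the lists. H2-Ea-ps, a class II pseudogene next to H2-Eb1, had 15.4, 18.4 and 5.16 FPKM in STZ+AOS, 1.68, 1.04 and 2.08 in STZ, 33.0, 5.74 and 6.38 in AOS and 14.9, 12.6 and 16.8 in control kidneys (interaction 2.68, limma adjusted p 0.0771). As with H2-Eb1, all 3 STZ libraries were the lowest of the 18, since the 6 FMT libraries had 9.29 to 25.1 FPKM. Gm14305, Gm14295 and Gm14296 are predicted genes with near-identical copies. Gm14305 had 0.83, 1.15 and 0.89 FPKM in STZ+AOS, 0.06, 0.46 and 0.21 in STZ, 1.04, 0.89 and 0.51 in AOS and 1.52, 1.95 and 2.38 in control kidneys (interaction 1.37), with all STZ libraries below all others of the 12. Gm14295 had 11.5, 13.4 and 9.64 FPKM in STZ+AOS, 6.59, 9.51 and 7.58 in STZ, 10.1, 9.53 and 6.61 in AOS and 16.1, 12.9 and 17.4 in control kidneys (interaction 1.26). Gm14296 had 0.71, 1.19 and 1.14 FPKM in STZ+AOS, 0.55, 0.55 and 0.77 in STZ, 0.29, 0.98 and 0.92 in AOS and 1.75, 2.52 and 2.17 in control kidneys (interaction 1.19). For these last genes STZ overlapped AOS, and AOS lay below control throughout. The adjusted p of all 3 was 0.0771.

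Hbb-bs, an adult beta-globin transcript, ranged widely within groups other than STZ+AOS. It had 1.07, 1.21 and 2.60 FPKM in STZ+AOS, 1537, 2.09 and 21.5 in STZ, 1.04, 2.93 and 213 in AOS and 0, 579 and 394 in control kidneys. The 6 FMT libraries had 115 to 3258 FPKM, all above every STZ+AOS library. Its interaction was -1.87 (adjusted p 0.707). Hbb-bt, an adjacent copy, followed it from library to library, with 0.23 to 0.92 FPKM in STZ+AOS and up to 176 in STZ kidneys. The low values did not extend to the sum of 7 erythroid markers, which include both genes. That sum ranged from 2106 to 13030 FPKM in STZ+AOS, 4916 to 10470 in STZ, 2712 to 6926 in AOS and 2623 to 6273 in control kidneys.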
